A study of Mus musculus with 9 samples.

Results

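The chemokines Xcl1, Ccl3, Ccl4 and Ccl5 are the 4 genes described here, of 909 named ones, each matched by 1 named probe set among the 1246 of a custom Affymetrix array of glycobiology genes named GLYCOv4. They were taken by name as chemokines made by CD8 T cells, with earlier results of these data known. A probe set was assigned to a gene by the RefSeq accession in its identifier. All 4 probe sets were found and all 4 are shown, out of 963 probe sets that could be named, while 283 stayed unnamed and may include further probe sets of these genes. None of the 4 carries the suffix that marks a probe set able to bind several transcripts. The RNA came from CD8 T cells of B10D2 mice, all with a transgenic T cell receptor and all labelled female, so that the receptor is common to every group. The sample descriptions call the deletion and anergy cells purified and do not use that word for the naive cells. Deletion cells (3 arrays) had been stimulated in vivo by their antigen as a weak signal, anergy cells (3 arrays) received a strong antigen signal in vivo, and naive cells (3 arrays) were the control. The labels give no age, no dose or time of antigen and no count of animals behind a sample, so the tests rest on a spread between samples that may be technical. Because each array holds RNA of a whole population, fewer expressing cells and less RNA per cell cannot be told apart.

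Chemokines are small secreted proteins that draw cells along a gradient by binding receptors of the G protein-coupled class, and they are held on tissue surfaces by the glycosaminoglycan chains of proteoglycans. Xcl1, or lymphotactin, is made by activated CD8 T cells and natural killer cells, and its receptor Xcr1 is found on the dendritic cells that cross-present antigen. Ccl3 and Ccl4, the macrophage inflammatory proteins, are released by CD8 T cells after their receptor is triggered and attract further T cells and myeloid cells, with Ccl3 acting in part through Ccr1. Ccl5, or RANTES, binds receptors that include Ccr1 and Ccr3, and in mouse memory CD8 T cells its transcript is known to be kept at rest, ahead of any new stimulus.

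In the RefSeq annotation of the GRCm38.p6 assembly, Ccl3 and Ccl4 are neighbours with 0 protein-coding genes listed between them. Ccl5 lies in the same cluster of chromosome 11, with 2 protein-coding genes between it and Ccl3, the chemokine genes Ccl9 and Ccl6. Xcl1 lies on chromosome 1, between Dpt and Tbx19. A promoter sequence was matched for 2 of the 4 genes, Xcl1 and Ccl3, and both are shown, since these genes were far higher in stimulated than in naive cells and lie on different chromosomes. Each is the 250 bases before the annotated start site in RefSeq's GRCm38.p6, which is the C57BL/6J genome and not that of B10D2, written 5′ to 3′ along the gene, at chr1:164935523-164935772 on the minus strand for Xcl1 and chr11:83649379-83649628 on the minus strand for Ccl3. Capitals mark matches to GGAAA, the core of the NFAT motif, which read TTTCC where they lie on the other strand.
Xcl1: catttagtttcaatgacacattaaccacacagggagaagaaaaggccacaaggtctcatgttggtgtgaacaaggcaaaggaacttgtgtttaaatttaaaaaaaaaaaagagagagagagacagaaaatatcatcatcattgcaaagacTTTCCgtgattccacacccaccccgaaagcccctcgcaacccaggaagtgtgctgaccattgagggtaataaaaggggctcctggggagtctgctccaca
Ccl3: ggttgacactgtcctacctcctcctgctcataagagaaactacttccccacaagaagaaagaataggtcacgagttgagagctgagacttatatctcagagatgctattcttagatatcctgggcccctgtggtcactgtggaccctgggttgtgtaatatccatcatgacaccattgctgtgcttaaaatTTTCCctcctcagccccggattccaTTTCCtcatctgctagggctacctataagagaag
The Xcl1 window held 1 match, starting at position -100, and the Ccl3 window held 2, starting at -59 and -34, counted back from the start site. A match to this short core was present on either strand in 55.6% of all 32817 promoter windows of the same length, so its presence is a description only. The AP-1 motif TGANTCA and the motif of NF-kappaB had 0 matches in both windows, against 6.75% and 17.6% of all windows.

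The arrays gave 1 log2 expression value per probe set, between 1.67 and 13.86, with array medians of 4.44 to 4.58. Over all probe sets, r between replicates was 0.995 to 0.998. No detection call was used, and levels of different probe sets are not comparable with each other. Having 3 arrays a group limits the precision. The purity of the cells could be checked only in part, since Cd2, a T cell adhesion receptor, was the only 1 of 13 listed CD8 T cell markers that was measured, and no probe set named for Cd3 or Cd8 chains was used. Cd2 moved with the comparisons: its log2 values were 9.82 to 10.38 in deletion, 9.33 to 9.48 in anergy and 11.53 to 11.68 in naive cells. Against naive cells it was lower by 1.57 in deletion and by 2.18 in anergy cells (limma adjusted p = 1.7e-05 and 1.04e-06), and its part in the chemokine values was not tested.

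Xcl1, Ccl3 and Ccl4 were strongly higher in both kinds of stimulated cells than in naive cells, and Ccl5 was not. Xcl1 was 55.3-fold higher in deletion cells and 39.9-fold higher in anergy cells than in naive cells, Ccl3 was 19.3-fold and 16.6-fold higher, and Ccl4 was 17.6-fold and 9.69-fold higher. Ccl5, which had its highest mean in naive cells, did not pass the test in deletion cells (0.730-fold, 95% interval 0.502 to 1.06) and was 0.603-fold in anergy cells (0.414 to 0.877), at the very edge of the threshold. None of the 4 passed the test between deletion and anergy cells, the comparison that the design names as its purpose. Ccl4 was 1.82-fold higher in deletion cells (limma adjusted p = 0.0863), and with the replicate number as a block that call changed and Ccl4 passed (adjusted p = 0.0344). The labels do not state such a pairing of replicate numbers. The main fit has no block, and the block was used as an alternative with calls of the blocked fit known.

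**Figure D1:**
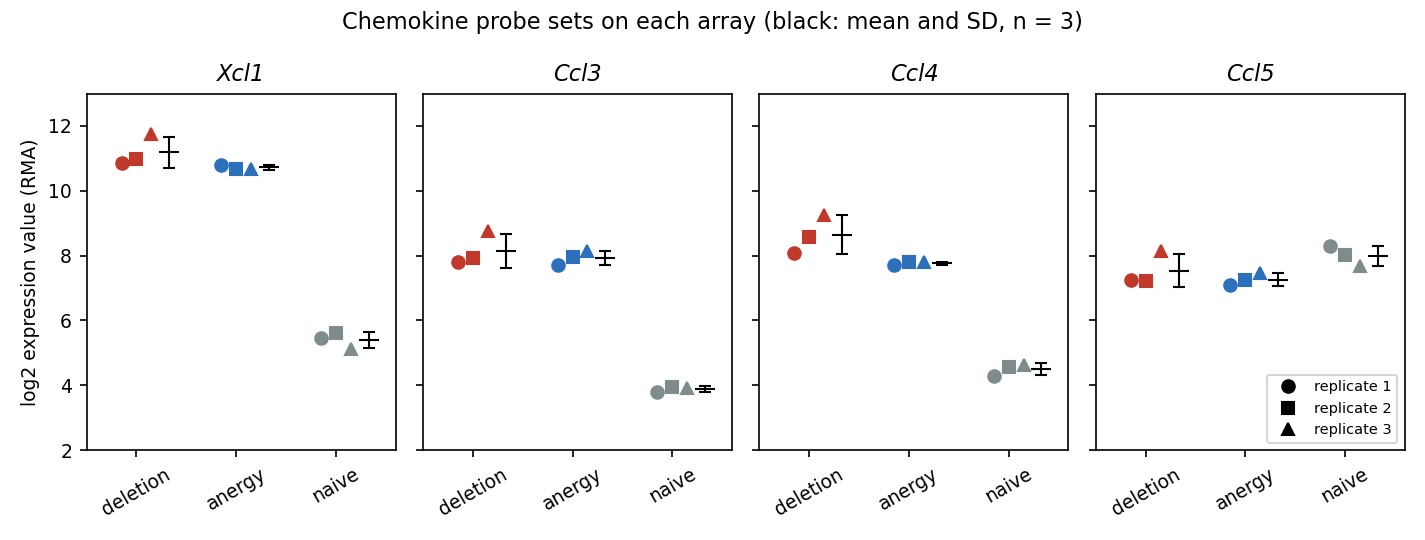
Log2 expression values of the 4 chemokine probe sets on each of the 9 arrays, grouped as deletion, anergy and naive, with the replicate number as the marker shape and the group mean and SD (n = 3) in black. Xcl1, Ccl3 and Ccl4 are far above naive in both stimulated groups, Ccl5 lies near 7 to 8 in every group, and deletion replicate 3 is the highest deletion array in all 4 panels.

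Xcl1 had log2 values of 10.87, 10.97 and 11.74 in deletion replicates 1 to 3, 10.80, 10.68 and 10.68 in anergy replicates 1 to 3, and 5.47, 5.61 and 5.13 in naive replicates 1 to 3. The 6 stimulated arrays were thus all far above the 3 naive ones, with the lowest deletion value 5.26 above the highest naive value. The difference from naive was 5.79 ± 0.21 on the log2 scale in deletion cells (SE, n = 3 arrays per group; limma adjusted p = 2.16e-08) and 5.32 ± 0.21 in anergy cells (adjusted p = 3.8e-08). Among all 1246 probe sets this was the largest rise in deletion against naive and the second largest rise in anergy against naive.

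Ccl3 had log2 values of 7.79, 7.92 and 8.75 in deletion replicates 1 to 3, 7.70, 7.96 and 8.14 in anergy replicates 1 to 3, and 3.78, 3.94 and 3.93 in naive replicates 1 to 3. The stimulated groups overlapped each other and lay well above the naive group, whose SD was only 0.090. The difference from naive was 4.27 ± 0.22 in deletion cells (SE; limma adjusted p = 3.11e-07) and 4.05 ± 0.22 in anergy cells (adjusted p = 3.52e-07).

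Ccl4, the gene next to Ccl3, had log2 values of 8.07, 8.58 and 9.26 in deletion replicates 1 to 3, 7.72, 7.79 and 7.81 in anergy replicates 1 to 3, and 4.29, 4.57 and 4.63 in naive replicates 1 to 3. The 3 anergy arrays were nearly identical (SD 0.047), the 3 deletion arrays were spread out (SD 0.60), and every deletion array was above every anergy array. The difference from naive was 4.14 ± 0.24 in deletion cells (SE; limma adjusted p = 7.5e-07) and 3.28 ± 0.24 in anergy cells (adjusted p = 3.63e-06).

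Ccl5 had log2 values of 7.25, 7.23 and 8.14 in deletion replicates 1 to 3, 7.09, 7.24 and 7.46 in anergy replicates 1 to 3, and 8.30, 8.01 and 7.67 in naive replicates 1 to 3. The naive arrays were highest on average, all 3 anergy arrays lay below all 3 naive arrays by at least 0.21 (as was so for 20.7% of all probe sets), and the deletion group overlapped the naive group through replicate 3. The difference from naive was -0.73 ± 0.24 in anergy cells (SE; limma adjusted p = 0.04999) and -0.45 ± 0.24 in deletion cells (adjusted p = 0.290). In anergy cells the call held in only 8 of 17 alternative settings. It was lost after quantile normalization (adjusted p = 0.153), without any single anergy array (0.071 to 0.149), without naive replicate 1 or 2 (0.186 and 0.125) and without deletion replicate 1 (0.056). In deletion cells the reverse occurred when replicate 3 was left out: the difference became -0.75 ± 0.17 and passed (adjusted p = 0.0163).

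Read against the whole array, 3 of the 4 chemokines were higher in deletion than in naive cells and 0 were lower, where 8.51% of all probe sets were called higher and 10.5% lower. In anergy against naive 3 were higher and 1 was lower, where 10.8% of probe sets were called higher and 16.1% lower. The median difference of the 4 was 4.20 in deletion and 3.66 in anergy against naive, beside medians of -0.02 and 0.007 over all probe sets. The 4 genes were chosen with earlier results of these data known, so this contrast with the whole array is a description. Both comparisons use the same 3 naive arrays, so their values are not independent of each other. In each of them the order of the rise was Xcl1, Ccl3, Ccl4 and last Ccl5, and this order was also found after quantile normalization and after median centring. The intervals of Ccl3 and Ccl4 overlapped in both comparisons (3.78 to 4.76 and 3.61 to 4.67 in deletion, 3.56 to 4.54 and 2.74 to 3.81 in anergy), but both probe sets lie on the same arrays, and overlap of the separate intervals does not show that the rises were alike.

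**Figure D2:**
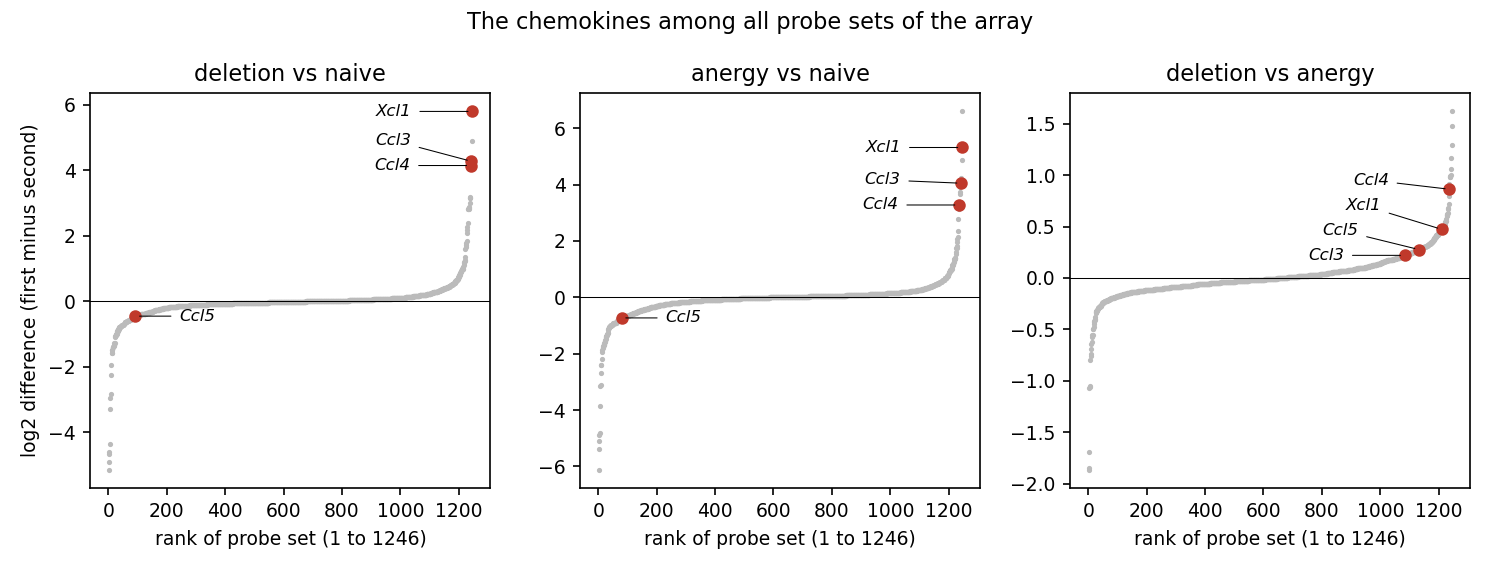
All 1246 probe sets ranked by their log2 difference (vertical axis) in each of the 3 comparisons, with the 4 chemokines in red. Xcl1 is the top probe set of deletion against naive, Ccl3 and Ccl4 are near the top against naive, Ccl5 is on the falling side there, and all 4 are above 0 in deletion against anergy.

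Between the stimulated groups all 4 chemokines were on average higher in deletion cells, the group given the weak signal, and none passed the test. Ccl4 differed by 0.86 ± 0.24 on the log2 scale (SE; 95% interval 0.33 to 1.40; limma adjusted p = 0.0863), Xcl1 by 0.47 ± 0.21 (0.01 to 0.94; adjusted p = 0.318), Ccl5 by 0.28 ± 0.24 (-0.26 to 0.82; adjusted p = 0.630) and Ccl3 by 0.22 ± 0.22 (-0.27 to 0.71; adjusted p = 0.671). The intervals are not adjusted for the number of probe sets. In this comparison 3.37% of all probe sets were called in either direction. Replicates of Ccl4 and Xcl1 did not overlap between the groups, with deletion higher, as was also the case for 11.0% of all probe sets, and for Xcl1 the gap was only 0.07. Arrays of the same replicate number deviated together weakly in deletion and anergy (r = 0.195 to 0.28). With the replicate number as a block over all 9 arrays Ccl4 passed (0.86 ± 0.18, limma adjusted p = 0.0344). The labels do not state this pairing, and same-numbered deletion and naive arrays did not deviate together. The block is an alternative to the main fit and was used with calls of the blocked fit known.

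**Figure D3:**
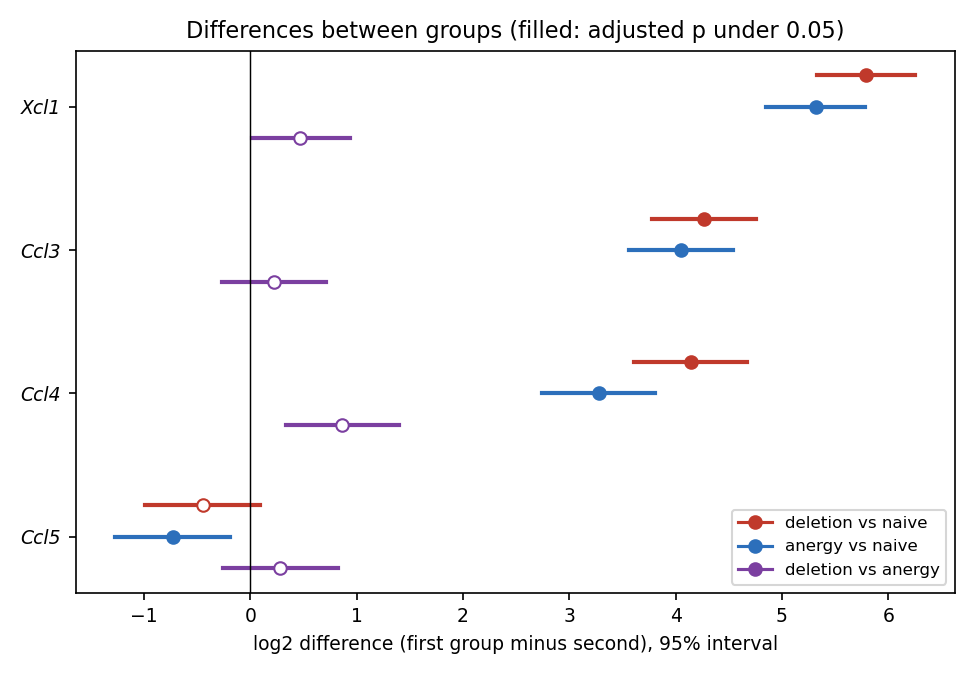
Log2 difference of each chemokine between groups, first group minus second, with its 95% interval from limma, filled where the adjusted p was under 0.05. The intervals of Xcl1, Ccl3 and Ccl4 against naive lie between 2.74 and 6.25, and the 4 intervals of deletion against anergy reach no further than 1.40.

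The differences of Xcl1, Ccl3 and Ccl5 between deletion and anergy rested largely on deletion replicate 3, and that of Ccl4 in part. That array exceeded the mean of the other deletion arrays by 0.82 for Xcl1, 0.89 for Ccl3, 0.94 for Ccl4 and 0.90 for Ccl5 on the log2 scale. The 4 chemokines were the 10th to 13th largest of 1246 such deviations on that array, where only 1.52% of probe sets were higher by at least 0.5. Without it the difference between deletion and anergy was 0.20 ± 0.13 for Xcl1 (SE; limma adjusted p = 0.576), -0.08 ± 0.12 for Ccl3 (0.838), 0.55 ± 0.15 for Ccl4 (0.134) and -0.02 ± 0.17 for Ccl5 (0.969). Ccl4 was thus the only 1 of the 4 that stayed above 0.20 without it. Leaving out deletion replicate 1, which had the lowest Ccl4 of its group, gave 1.15 ± 0.18 for Ccl4 and passed (adjusted p = 0.0156).

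On the same array several marker sums, but not all, were also at their highest for the deletion group. The summed linear signal of 6 measured B cell markers was 599 on deletion replicate 3, against 466 and 429 on deletion replicates 1 and 2. Cd2 alone was 1333 there and 904 to 917 on the other 2, 6 natural killer cell markers summed to 1507 against 1180 to 1374, and 22 macrophage, monocyte and dendritic cell markers to 405 against 363 to 388. The sum of 9 granulocyte, mast cell, erythroid and platelet markers was highest on replicate 1 (110, with 108 on replicate 3). So was that of 3 CD4 T cell markers (31, with 29 on replicate 3). Single members of a sum also differed: the log2 value of the macrophage marker Adgre1 was highest on replicate 2 (3.14, with 2.79 on replicate 3). The part of these markers in the chemokine values was not tested. Without this array the rises of Xcl1, Ccl3 and Ccl4 in deletion against naive were 5.52 ± 0.13, 3.97 ± 0.12 and 3.83 ± 0.15 (SE), all still past the threshold.

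**Figure D4:**
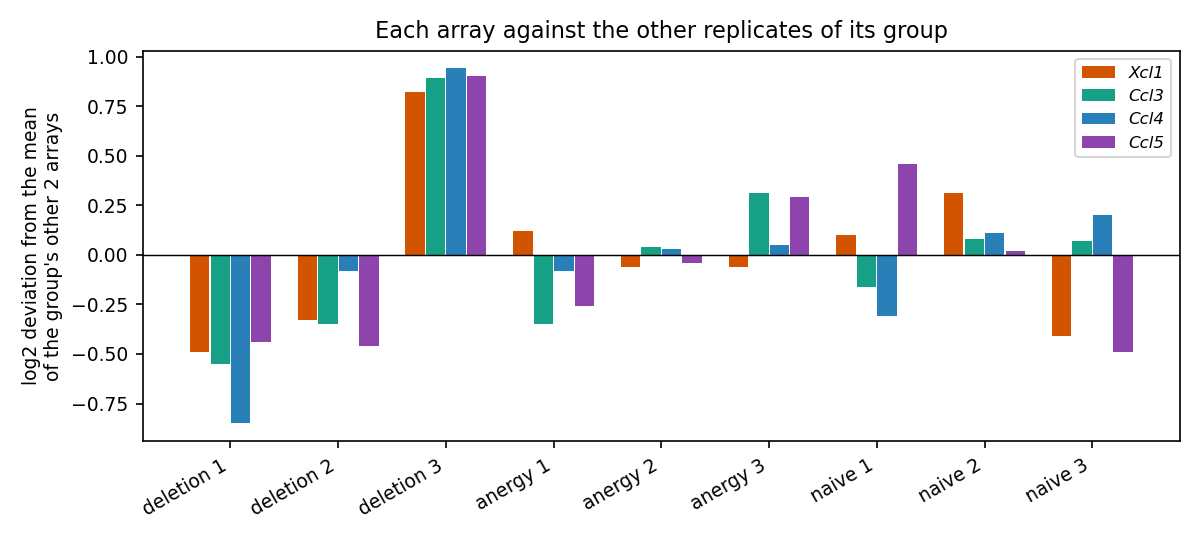
Deviation of each chemokine on each array from the mean of the other 2 arrays of its group, on the log2 scale. On deletion replicate 3 all 4 bars lie between 0.82 and 0.94, while no bar of an anergy or naive array goes beyond 0.49 in either direction.

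The 4 chemokines deviated from the other arrays of their group in 1 direction together on 4 of 9 arrays, the 3 deletion arrays and naive replicate 2. On the other 5 the directions were mixed. Deletion replicates 1 and 2 were each set against a mean that holds the high replicate 3, so the 3 deletion arrays are not separate cases. Between themselves replicates 1 and 2 were close for Xcl1 (10.87 and 10.97), Ccl3 (7.79 and 7.92) and Ccl5 (7.25 and 7.23), less so for Ccl4 (8.07 and 8.58). On naive replicate 3, for example, Xcl1 (-0.41) and Ccl5 (-0.49) lay below the other naive arrays, with Ccl3 (0.07) and Ccl4 (0.20) above them. The correlation of their deviations from the group means over the 9 arrays was 0.897 for Ccl3 with Ccl4, 0.847 for Xcl1 with Ccl5, 0.783 for Ccl3 with Ccl5, 0.742 for Xcl1 with Ccl3, 0.732 for Xcl1 with Ccl4 and 0.587 for Ccl4 with Ccl5. These are descriptions over arrays that each carry all 4 probe sets, and for each gene the largest deviation is that of deletion replicate 3. Over the levels themselves Xcl1, Ccl3 and Ccl4 correlated with each other at 0.986 to 0.995, while Ccl5 correlated with them at -0.575 to -0.516.

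The balance between Ccl4 and Ccl3, neighbours in the genome, was lowest on the anergy arrays. The log2 value of Ccl4 minus that of Ccl3 was 0.28, 0.66 and 0.51 in deletion replicates 1 to 3, 0.02, -0.17 and -0.33 in anergy replicates 1 to 3, and 0.51, 0.63 and 0.70 in naive replicates 1 to 3. The difference was lower on every anergy array than on any deletion or naive array, whereas deletion and naive overlapped. It averaged 0.48 ± 0.19 in deletion, -0.16 ± 0.18 in anergy and 0.61 ± 0.10 in naive cells (SD, n = 3 each). The naive values behind it, 3.78 to 3.94 for Ccl3 and 4.29 to 4.63 for Ccl4, were near or below the array medians. Without a detection call the naive difference may not be one of transcripts. This contrast was chosen after its values were seen, and so it is given with no test.

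For each chemokine the 3 other named probe sets with the most alike values over the 9 arrays were taken by Pearson correlation. For Xcl1 they were Angptl2, a secreted angiopoietin-like protein (r = 0.996), Ccl3 (0.995) and Chst2, which sulfates N-acetylglucosamine on selectin ligands (0.992). For Ccl3 they were Xcl1 (0.995), Ifng, the interferon-gamma cytokine of effector T cells (0.993), and Angptl2 (0.989). For Ccl4 they were Psen2, a subunit of the gamma-secretase protease (0.990), Ccl3 (0.986) and Xcl1 (0.986). All of these were lower in naive cells than in both stimulated groups, which alone gives a high correlation over these arrays. The probe sets of Angptl2 and Psen2 carry the suffix of those that can bind several transcripts.

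Ccl5 had different companions. They were Cd69, an early activation marker that also holds T cells in lymphoid tissue (r = 0.927), Junb, an AP-1 transcription factor induced early after stimulation (0.919), and Col14a1, a collagen chain at values near the floor of the arrays (0.848). The probe set of Col14a1 also carries the suffix of those that can bind several transcripts. Cd69 had log2 values of 7.78, 7.76 and 9.44 in deletion replicates 1 to 3, 7.44, 8.05 and 8.33 in anergy replicates 1 to 3, and 8.84, 8.91 and 8.54 in naive replicates 1 to 3. Junb had 8.13, 7.57 and 9.34 in deletion, 7.56, 7.94 and 7.90 in anergy, and 8.84, 9.11 and 8.43 in naive replicates 1 to 3. As for Ccl5, the naive arrays and deletion replicate 3 were high in both genes and the other stimulated arrays were lower.

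Values are given for 4 receptors of these chemokines. Ccr4, whose main ligands are Ccl17 and Ccl22, was lower by 0.24 in deletion and by 0.26 in anergy cells (adjusted p = 0.0459 and 0.0251), at values of 2.47 to 2.90 that are close to the lowest of the arrays. Ccr1, Ccr3 and Xcr1 did not pass in any comparison, with differences between -0.10 and 0.04. The values of Ccr1 (2.13 to 2.24) and Ccr3 (2.48 to 2.68) were also close to the lowest of the arrays. Xcr1, which marks the dendritic cells that Xcl1 attracts, had values of 3.28 to 3.62 on all 9 arrays.

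The rise was not shared by the other chemokine ligands on the array. Of 26 measured, 0 passed in deletion against naive, with differences between -0.19 and 0.18 and a median of -0.03. In that comparison 8.51% of all probe sets were called higher and 10.5% lower. In anergy against naive Ccl1, a ligand of Ccr8 made by T cells, was higher by 0.43 ± 0.13 (SE; limma adjusted p = 0.0292) and the other 25 did not pass, with a median of 0.04 for the list. In deletion against anergy 0 of 26 passed, with differences between -0.25 and 0.27. Over all arrays the log2 values of the 26 ran between 2.00 for Cxcl5 and 7.32 for Ccl27a.

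Other chemokine receptors moved in both directions. Against naive cells, 3 of 15 measured passed upward and 3 downward in deletion, and 5 passed upward and 3 downward in anergy. The shares over all probe sets were 8.51% upward and 10.5% downward in deletion, and 10.8% and 16.1% in anergy. Cxcr3, a receptor that guides effector T cells to inflamed tissue, was higher by 1.73 ± 0.16 in deletion and 2.35 ± 0.16 in anergy cells, and the gut homing receptor Ccr9 was lower by 4.92 ± 0.13 and 5.38 ± 0.13 (SE). Ccr7, the lymph node homing receptor, fell by 0.99 and 1.40, and Cxcr6 by 1.10 and 1.27. Between deletion and anergy 2 of 15 passed, both lower in deletion: Ccr6 (-1.07 ± 0.11) and Cxcr4 (-0.74 ± 0.14). There 3.37% of all probe sets were called in either direction.

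**Figure D5:**
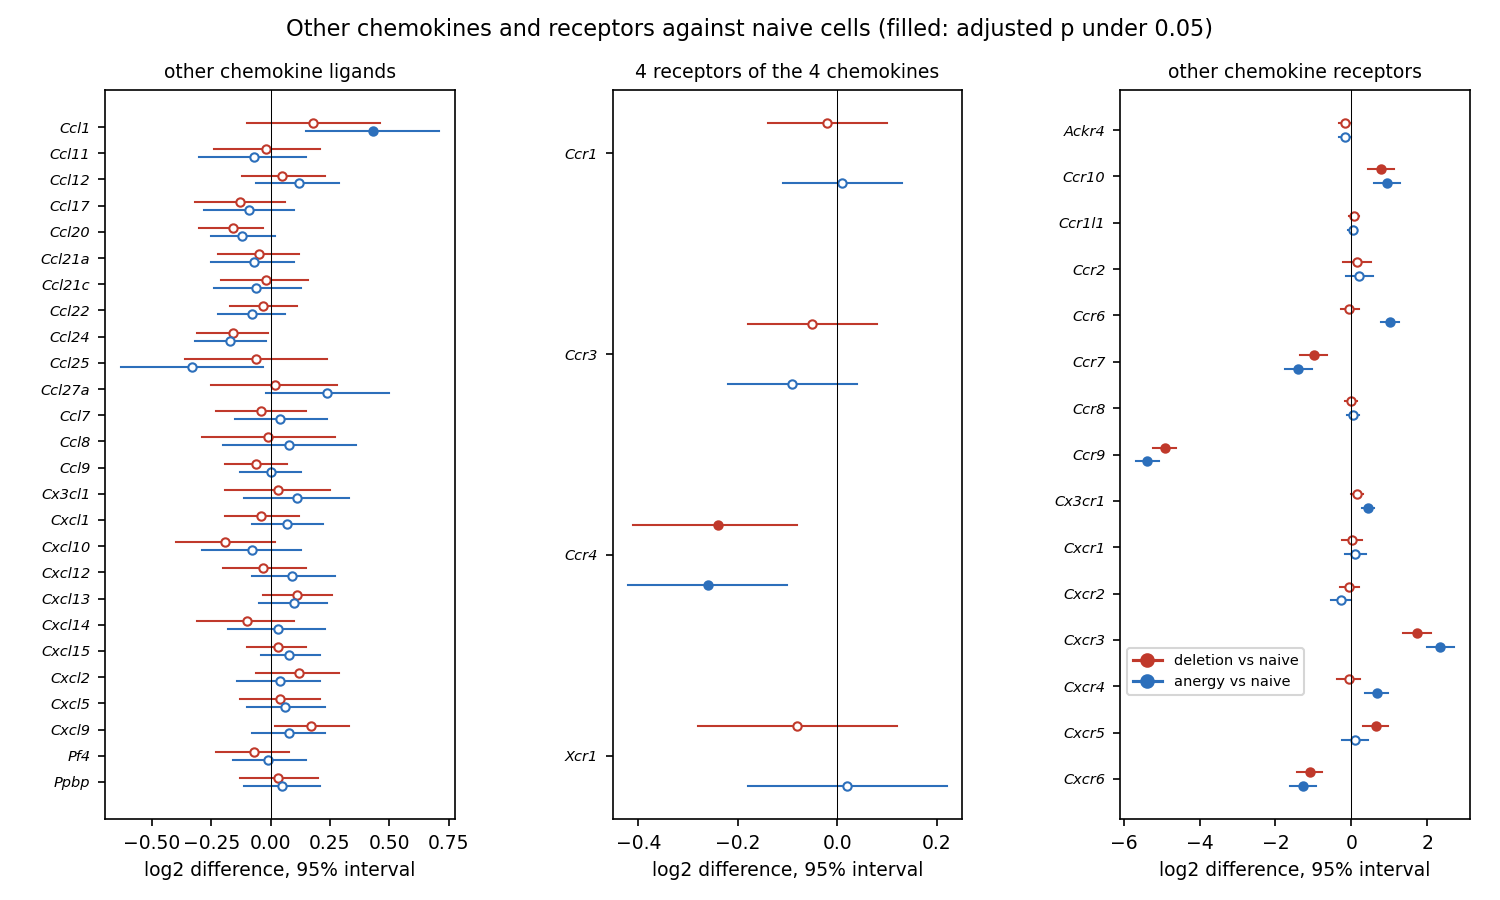
Log2 difference from naive cells, with 95% interval, of the other 26 chemokine ligands, 4 receptors of the 4 chemokines and the other 15 chemokine receptors, in deletion (red) and anergy (blue), filled where the adjusted p was under 0.05; the horizontal axes differ between panels. Only Ccl1 is filled among the ligands, in anergy, while among the receptors Ccr9 lies near -5 and Cxcr3 near 2.

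Among 11 measured secreted products of activated T cells, 3 rose and 0 fell in deletion against naive cells, and 4 rose and 0 fell in anergy against naive cells. Of all probe sets, 8.51% were called higher and 10.5% lower in deletion, and 10.8% and 16.1% in anergy. Ifng had log2 values of 8.39, 7.85 and 9.29 in deletion replicates 1 to 3, 7.76, 8.26 and 8.48 in anergy replicates 1 to 3, and 4.15, 4.43 and 3.82 in naive replicates 1 to 3, so that deletion replicate 3 was highest here too. Csf2, the cytokine GM-CSF, was higher by 0.45 ± 0.08 in deletion and 0.33 ± 0.08 in anergy cells (SE). Il2 passed in deletion (0.51 ± 0.13, adjusted p = 0.0240), with 0.17 ± 0.13 in anergy (0.435). Il10 and Il21 passed in anergy, at 0.35 ± 0.10 and 0.53 ± 0.08, with 0.02 and -0.03 in deletion. Apart from Ifng these cytokines lay below a log2 value of 4. Between deletion and anergy 1 of the 11 passed, Il21, lower by 0.56 in deletion, where 3.37% of all probe sets were called in either direction.

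Natural killer cells can also make these chemokines, and macrophages some of them. The part of other cells in the chemokine values was not tested. The summed linear signal of 6 of 13 listed natural killer cell markers was 1180 to 1507 in deletion, 1376 to 1521 in anergy and 2610 to 2952 in naive cells. Most of it came from Klrd1, which CD8 T cells express too, and 1 of the 6, Klrk1, was higher in anergy (0.79 ± 0.14). The sum of 22 of 35 macrophage, monocyte and dendritic cell markers was 363 to 405 in deletion, 372 to 398 in anergy and 410 to 414 in naive cells, with 18 of the 22 never above a log2 value of 5 on any array. Of these 22, 1 was lower in deletion than in naive cells (Ly75) and in anergy Cx3cr1 was higher and Ly75 lower. The sum of 6 of 11 B cell markers was 429 to 599, 401 to 458 and 634 to 705 in deletion, anergy and naive cells. Its members went both ways: Cd72 was lower by 1.56 in deletion and by 1.64 in anergy than in naive cells, Cd22 was higher by 1.17 and 0.98 (adjusted p = 0.000413 and 0.00093), and Cxcr5 was higher by 0.64 in deletion (0.0138). The sum of 9 of 16 granulocyte, mast cell, erythroid and platelet markers was 103 to 110, 102 to 108 and 106 to 116, and that of 3 of 6 CD4 T cell markers 28 to 31, 42 to 45 and 29 to 30. The last was led by Il2ra, which activated CD8 T cells also express and which was higher in anergy than in naive cells by 1.16 ± 0.11.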

How the data were processed

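RNA of the 9 samples was extracted with Trizol and made into biotin-labelled cRNA, per the labels' protocols. The authors deposited 1 log2 value per probe set and array, made with RMA per the submitters' processing notes; the version of RMA and filters, if any, are not given in the sources used here. That the scale is log2 was taken from the method and from the values, which span 1.67 to 13.86. Values were used as deposited, with no filter. Probe sets were named through their RefSeq accession, without version, in a RefSeq gene table of GRCm38.p6: 963 of 1246 (77.3%) matched and 283 stayed unnamed. A gene of a context list with several probe sets was represented by that with the highest mean.

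The 3 comparisons were fitted together with limma 3.58.1 (lmFit and eBayes) in R 4.3.3 over all 9 arrays, with 6 residual and 3.65 prior degrees of freedom. Tests were two-sided, with Benjamini-Hochberg adjustment within each comparison across all 1246 probe sets and a threshold of 0.05. The median SE of a difference was 0.087. In data simulated for deletion against naive, 200 of 1246 probe sets were changed in each of 20 draws. The noise was normal and drawn independently for each probe set and array. Deviations that probe sets share on an array, as on deletion replicate 3, were therefore left out. On the log2 scale 94.6% of changes of 0.5, 99.2% of changes of 1 and 100% of changes of 3 were recovered. Of the calls, 4.11% were false. These shares are taken over all changed probe sets, whereas the SE of the 4 chemokines in this comparison was 0.21 to 0.24. The shares therefore do not show how often changes of 0.5 or 1 would be found in these 4 genes.

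Same-numbered deletion and anergy arrays deviated from their group means together (r = 0.195, 0.270 and 0.280), those of deletion and naive did not (-0.142 to 0.118), nor did those of anergy and naive in every pair (-0.154 to 0.274). The labels do not state this pairing. It is not part of the main fit, and it was used as an alternative with calls of the blocked fit known. The members, lists and motifs were chosen with earlier results of these data known. The text names every probe set of the 4 genes, 3 genes most like each by correlation, the measured receptors of the 4 (the result of 1 is not reported here; Ackr4, first listed there, was counted with the other receptors, since it binds other chemokines) and, from each other list, up to 6 genes past the threshold, and other genes named were chosen after their values were seen. Alternatives were quantile normalization, median centring, no moderation, an intensity trend with robust moderation, array weights, only the compared groups, a replicate block, the dimmest 33.4% of probe sets left out, a threshold of 0.01, and each array left out.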

Additional observations from a re-analysis of the deposited data

How the results depend on the processing

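Against naive cells, Xcl1, Ccl3 and Ccl4 kept their direction and passed in all 17 alternative settings in both comparisons, with log2 differences of 5.52 to 5.95, 3.97 to 4.45 and 3.83 to 4.42 in deletion and 5.18 to 5.42, 3.95 to 4.17 and 3.17 to 3.34 in anergy. Ccl5 kept its direction against naive in all 17 settings of each comparison, and its call in anergy was also lost with no moderation (adjusted p = 0.158) and with a replicate block (0.0623). Between deletion and anergy 1 of the 4 chemokines, Ccl4, passed with the replicate block, and 0 to 1 did when single arrays were left out, against 0 as reported; at an unadjusted p under 0.05, Xcl1 (0.0464) and Ccl4 (0.00492) would pass. The replicate block changed no other call. Without deletion replicate 3 the differences of Ccl3 (-0.08) and Ccl5 (-0.02) between deletion and anergy changed sign, and the cause was not tested; leaving out single arrays gave -0.08 to 0.40 for Ccl3 and -0.02 to 0.43 for Ccl5. No detection limit was known, so folds of low values may be understated.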

Other observations

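A probe set with a UCSC identifier that the gene table does not hold, uc007kpi.1_s_at, followed Ccl5 more closely than any named one, with r = 0.983 over the 9 arrays and 0.966 over the deviations from the group means. Its log2 values were 6.90, 6.78 and 7.98 in deletion replicates 1 to 3, 6.43, 6.98 and 7.26 in anergy replicates 1 to 3, and 8.18, 7.93 and 7.48 in naive replicates 1 to 3. It was singled out after its values were seen, and no gene is given to it here. Whether it is a further probe set of 1 of the 4 chemokines was not tested.

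The probe sets by which deletion replicate 3 exceeded the other deletion arrays most were, after their values were seen, Cd69 (1.67 on the log2 scale), Junb (1.49), Lgals7 (1.48), Vcam1 (1.41), Cd74 (1.32), Igfbp4 (1.28), Klra9 (1.24) and Ifng (1.17), followed by the unnamed probe set above (1.14) and the 4 chemokines. Cd69, Junb and Ifng are genes that respond to stimulation of T cells, and Cd74, the invariant chain of class II antigen presentation, is made chiefly by antigen-presenting cells. Cd74 had log2 values of 6.74, 7.54 and 8.46 in deletion replicates 1 to 3, 6.94, 7.42 and 7.51 in anergy replicates 1 to 3, and 7.70, 7.51 and 5.92 in naive replicates 1 to 3, so that it did not separate the groups. Its part in the chemokine values of that array was not tested.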
